A study of Drosophila melanogaster with 6 samples.

Results

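Early spermatocytes are the male germ cells that have left the mitotic divisions and entered the long growth phase before meiosis. In these data they were the cells that the deposited cell annotation of the study calls early spermatocytes, and all 1775 of them were taken, out of 26549 annotated testis cells. They came from 6 single-cell libraries, with 130, 452 and 906 cells in chinmoST testes aged 3-5 d, 6-8 d and 9-11 d and 106, 102 and 79 cells in wild-type testes at the same ages.

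In the Drosophila testis, germline stem cells (GSCs) next to the hub give rise to spermatogonia, which divide by mitosis inside an envelope of somatic cyst cells and then become spermatocytes. Spermatocytes switch on a large testis-specific programme through the tMAC complex and testis-specific TAFs (paralogs of general transcription factor subunits), and they store many transcripts whose translation is held back until meiosis or spermatid differentiation. Germline stem cells and spermatogonia are known for high ribosome biogenesis.

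The study followed testes in which the somatic lineage loses male identity with age. The chinmoST flies carried the strain name ChinmoST and a genotype label with the alleles Sod1[X-39] and e[1] over the balancer TM3 (carrying Sb[1] and Ser[1]), and the wild-type flies were Oregon R males. Each genotype gave 1 library of pooled testes at each of 3 ages, so the 3 ages of a genotype served as its replicates and the spread between them holds both age and library. Because the strains differ, the chinmo allele and the strain background cannot be told apart, and spermatids had been filtered out of the cell suspensions before capture.

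Single early spermatocytes were shallower in chinmoST testes. Together, early spermatocytes held 356362, 1231895 and 2090798 unique molecular identifiers (UMIs, counted transcript molecules) in chinmoST testes from the youngest to the oldest age, against 552665, 645077 and 312493 UMIs in wild-type testes. The median cell had 1673, 1390 and 1476 UMIs in chinmoST testes, against 3517.5, 3307.5 and 2581 UMIs in wild-type testes, so the library medians did not overlap between genotypes. Single cells did overlap in depth, with an upper quartile of 2616.8 UMIs in chinmoST testes at 3-5 d and a lower quartile of 1772.5 UMIs in wild-type testes at 9-11 d. The median number of genes detected per cell was 1105, 945 and 975 in chinmoST testes, against 1966, 1806.5 and 1595 in wild-type testes. Cells under 2105 UMIs made up 63.9%, 79.9% and 81.7% of the chinmoST early spermatocytes and 13.2%, 0% and 41.8% of the wild-type ones. The limit of 2105 UMIs was set as the highest of the library minima over all annotated cells, which was that of the wild-type 6-8 d library. The 0% of that library, in early spermatocytes as in the later stages, was therefore fixed by the choice of limit. Nothing is drawn from it. No more than 1 early spermatocyte barcode was shared by any pair of libraries. The 2 libraries of 3-5 d stood apart from the rest in both genotypes, with at most 1 UMI of the mitochondrial small ribosomal RNA in early spermatocytes against 37 to 1345 in the others, so the main counts are also given without them. Depth moved with genotype in all that follows, and a result named without further comment was taken from the UMIs summed over all early spermatocytes of a library, scaled by their total to CPM, the common unit for counts from libraries of unequal depth.

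**Figure D1:**
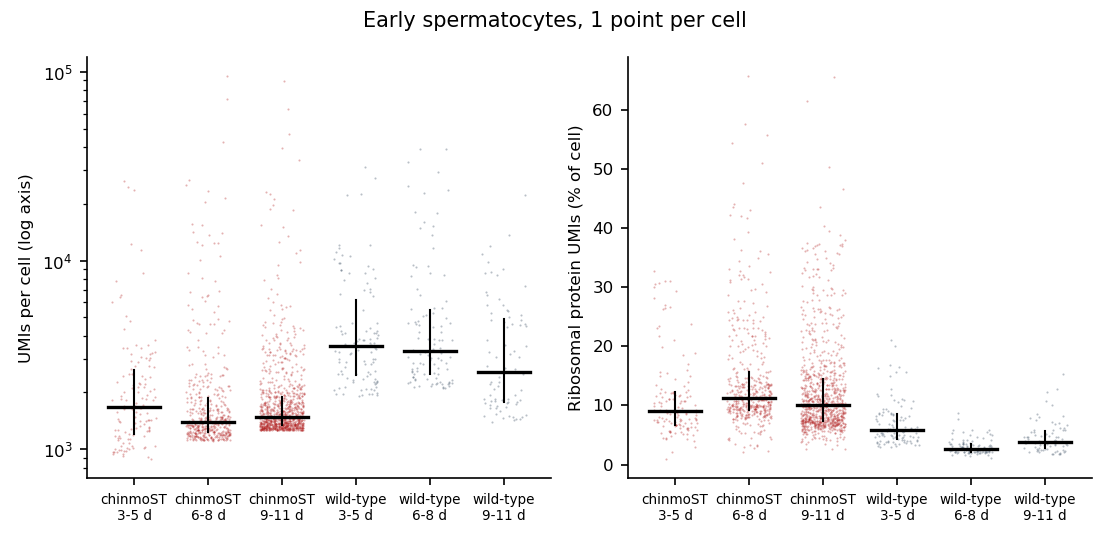
Depth and ribosomal protein content of the early spermatocytes, 1 point per cell in each of the 6 libraries. The left panel shows UMIs per cell on a log axis and the right panel the percent of a cell's UMIs that came from the 80 cytoplasmic ribosomal protein genes; horizontal bars are medians and vertical bars run between the quartiles. Median UMIs lay at 1390 to 1673 in chinmoST testes and 2581 to 3517.5 in wild-type testes, and median ribosomal protein shares at 9.07% to 11.2% in chinmoST testes and 2.62% to 5.86% in wild-type testes.

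Do the cells carry the transcripts of their label? The 5 markers of the stage are Rbp4, an RNA-binding protein that holds back translation of cyclin B, kmg (kumgang), a zinc-finger protein that limits which promoters spermatocytes use, wuc, a tMAC component, and nht and Taf12L, 2 of the testis TAFs. Their summed level in early spermatocytes was 1501, 901.9 and 863.3 CPM in chinmoST testes and 1424, 700.7 and 979.2 CPM in wild-type testes. In every library this was above the sum in the next stage, intermediate spermatocytes, with 644.7, 505.9 and 590.8 CPM in chinmoST testes and 606.1, 329.5 and 352.7 CPM in wild-type testes. Late spermatocytes were lower again, at 180, 277 and 250.4 CPM in chinmoST testes and 179.9, 168.1 and 89.3 CPM in wild-type testes. Toward the earlier stage the markers were less clear-cut: GSCs/spermatogonia had 249.4, 121.6 and 142.5 CPM in chinmoST testes, but 687.9 CPM in wild-type testes at 3-5 d, and at 6-8 and 9-11 d wild-type testes held only 6 and 4 such cells. The annotation rests on the expression of these cells, so these levels describe the label and do not test it.

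Rbp4 (chromosome 3R, dm6 positions 13654556 to 13656394) stood at 569.6, 312.5 and 248.7 CPM in chinmoST early spermatocytes, against 488.5, 145.7 and 236.8 CPM in wild-type ones. The ranges overlapped, and both genotypes had their highest level at 3-5 d. The log2 fold change, chinmoST over wild-type, was 0.50 with a standard error (SE) of 0.42, and the adjusted p was 0.42 (edgeR quasi-likelihood test, Benjamini-Hochberg over all tested genes). wuc stood at 269.4, 185.1 and 169.3 CPM in chinmoST cells and 253.3, 164.3 and 224 CPM in wild-type cells, log2 fold change 0.12 (SE 0.24), adjusted p = 0.76 in the same edgeR test. The log2 fold change of wuc turned to -0.065 without the wild-type 6-8 d library and to -0.052 without the chinmoST 3-5 d library. nht stood at 216.1, 145.3 and 147.8 CPM in chinmoST cells and 195.4, 134.9 and 137.6 CPM in wild-type cells. Taf12L stood at 362, 200.5 and 249.2 CPM in chinmoST cells and 430.6, 198.4 and 339.2 CPM in wild-type cells. For kmg the levels were 84.2, 58.5 and 48.3 CPM in chinmoST cells and 56.1, 57.4 and 41.6 CPM in wild-type cells. For all 5 markers the genotypes overlapped and no difference passed the test, also by DESeq2 or at an unadjusted p under 0.05 (0 of 5 each). Over 16 alternative settings, however, Rbp4 was called in 2, with log2 fold changes of 0.148 to 1.159 over the 16. The other markers were called in none of their alternative settings.

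Single cells were read at equal depth. After each cell was thinned to 886 UMIs, an Rbp4 UMI remained in 40.0%, 18.4% and 14.6% of chinmoST early spermatocytes and in 31.1%, 11.8% and 16.5% of wild-type ones. The exact 95% intervals were 31.5% to 49.0%, 14.9% to 22.2% and 12.3% to 17.0% in chinmoST cells and 22.5% to 40.9%, 6.23% to 19.7% and 9.06% to 26.5% in wild-type cells. Before thinning the shares were 62.3%, 31.9% and 28.3% in chinmoST cells and 83.0%, 45.1% and 41.8% in wild-type cells. Muscle cells, which should lack the transcript, had thinned shares of 2.27%, 0% and 5.13% in chinmoST testes (88, 28 and 39 cells, median 2794.5, 1326.5 and 1371 UMIs) and 0% in each wild-type library (72, 5 and 5 cells, median 4205, 5273 and 1506 UMIs), where 0 cells allow up to 12.3% in chinmoST muscle at 6-8 d and 4.99%, 52.2% and 52.2% in the wild-type libraries. Taf12L was less distinct in chinmoST testes, with a UMI in 21.5%, 16.8% and 17.3% of thinned early spermatocytes and in 2.27%, 10.7% and 23.1% of thinned muscle cells. At 9-11 d that muscle share (39 cells, 95% interval 11.1% to 39.3%) was no lower than the early spermatocyte share, so single cells did not separate from muscle by Taf12L there. Those muscle cells also held 62 UMIs of bam (470.2 CPM), a GSC and spermatogonia marker, which limits their use as background. Summed Taf12L was 249.2 CPM in early spermatocytes and 106.2 CPM in muscle cells of that library.

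**Figure D2:**
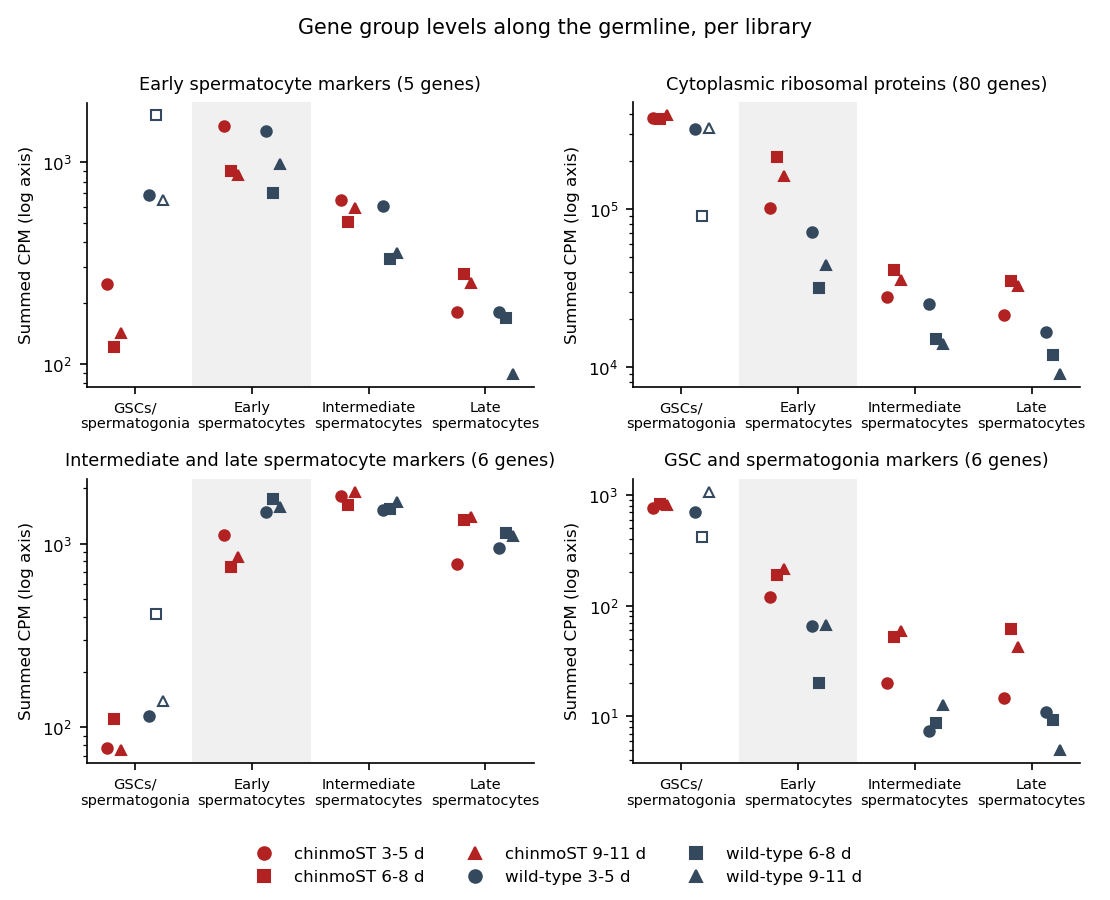
Summed CPM (log axis) of 4 gene groups along the germline, 1 symbol per library, chinmoST left of wild-type within each cell type; the early spermatocyte column is shaded and open symbols mark the wild-type GSC/spermatogonia sums from 6 and 4 cells. The ribosomal protein sum in early spermatocytes was 102000 to 214800 CPM in chinmoST testes and 31810 to 71460 CPM in wild-type testes, between the levels of GSCs/spermatogonia and of intermediate spermatocytes in every library.

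Early spermatocytes made up a growing share of the chinmoST libraries. They were 1.95%, 11.9% and 27.7% of all annotated cells in chinmoST testes from the youngest to the oldest age, against 2.36%, 2.32% and 2.01% in wild-type testes. Exact binomial 95% intervals for these shares, which cover counting error only, were 1.63% to 2.31%, 10.9% to 13.0% and 26.1% to 29.2% in chinmoST testes and lay within 1.595% to 2.85% in wild-type testes. Relative to the next stage, there were 1.69, 2.02 and 14.6 early spermatocytes for each intermediate spermatocyte in chinmoST testes, against 0.65, 0.557 and 0.594 in wild-type testes. Every chinmoST ratio was above every wild-type ratio, and the log2 ratio averaged 1.88 ± 1.73 in chinmoST testes and -0.74 ± 0.11 in wild-type testes (SD, n = 3 each; difference 2.62, exact two-sided permutation p = 0.1, which is the smallest p that 3 against 3 libraries allow). Among cells with at least 2105 UMIs the ratios were 1.27, 0.508 and 3.13 in chinmoST testes and 0.687, 0.557 and 0.479 in wild-type testes, so the genotypes overlapped and the difference of the mean log2 ratios was 1.15 (exact permutation p = 0.3). Without the chinmoST 9-11 d library the difference over all cells was 1.62. In libraries of pooled tissue, more cells of a type and fewer cells of the others cannot be told apart.

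The annotated stage drew on 2 clusters of the deposited clustering. Cluster 4 was almost entirely early spermatocytes, with 811 of its 911 cells, whereas cluster 9 held 895 of them beside 727 intermediate and 2416 late spermatocytes, and the other 69 were scattered. Cluster 4 held 83.1%, 48.2% and 28.7% of the chinmoST early spermatocytes, against 85.9%, 67.6% and 82.3% of the wild-type ones. Cluster 9 held 14.6%, 50.2% and 65.8% in chinmoST testes, against 11.3%, 30.4% and 12.7% in wild-type testes. Most wild-type early spermatocytes thus sat in the cluster of their own. Of the chinmoST ones, most at 9-11 d sat in the cluster shared with later spermatocytes, while those at 6-8 d were split about evenly between the 2 clusters. The chinmoST cells of cluster 9 were shallow at those ages, with medians of 1329 and 1407.5 UMIs at 6-8 and 9-11 d, against 2659 and 4997 UMIs in wild-type cells of the cluster. Since the clusters were built from the same expression values, the comparison of genotypes across genes was also run within each of them.

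Across all genes, early spermatocytes of chinmoST testes differed from those of wild-type testes at 262 of 6501 tested genes, or 4.03% (adjusted p under 0.05, edgeR quasi-likelihood test). Of these, 211 genes (3.25% of those tested) were higher and 51 (0.784%) were lower in chinmoST cells. In CPM, libraries of the genotypes did not overlap at 795 genes with chinmoST above (12.2%) and at 1459 genes with chinmoST below (22.4%). The median log2 fold change over all tested genes was 0.06. CPM was scaled by the total, ribosomal protein transcripts included, whereas the fold changes used the TMM scaling of edgeR. Within ages the median log2 ratio of CPM over all tested genes was -0.008, -0.157 and -0.166. Counts below wild-type in CPM hold this shift and do not alone show a broad fall. The calls depended on single libraries: none remained without any 1 of the 4 libraries of 6-8 or 9-11 d, although 927 and 1359 genes (chinmoST 6-8 or 9-11 d left out) and 1147 and 1637 genes (wild-type 6-8 or 9-11 d left out) then had an unadjusted p under 0.05. Without the wild-type 3-5 d library there were 967 calls and without the chinmoST 3-5 d library 1427. All 262 genes kept their direction in every one of these fits in which they were tested.

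**Figure D3:**
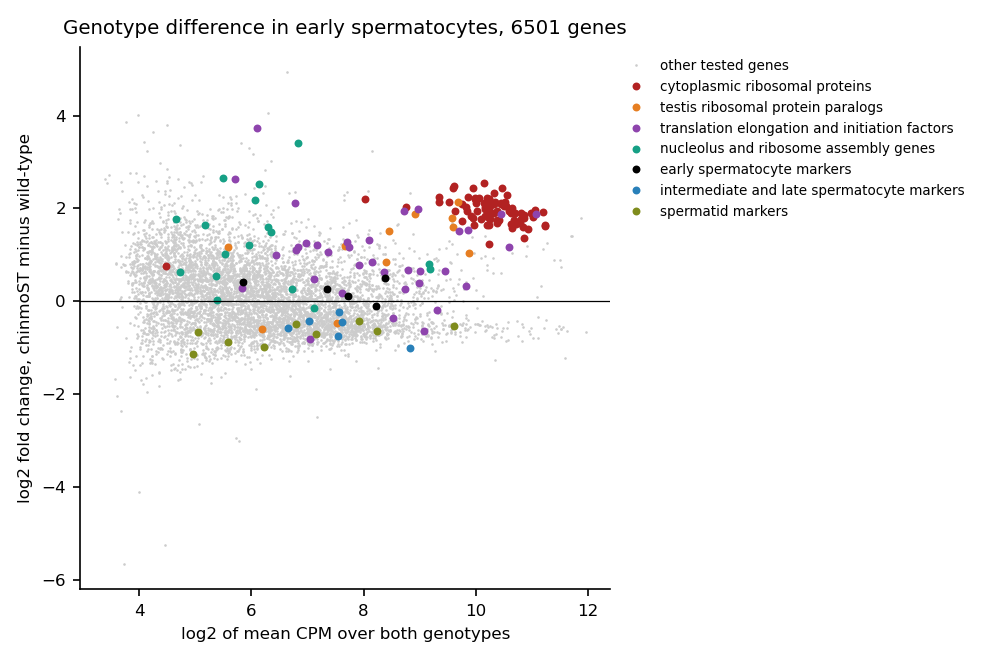
Log2 fold change of chinmoST over wild-type early spermatocytes for 6501 tested genes, against the log2 of the mean CPM over both genotypes, with 7 gene groups in colour. Ribosomal protein genes form a cloud at high CPM with a median log2 fold change of 1.94, the early spermatocyte markers sit near 0, and the intermediate, late and spermatid markers sit mostly below it.

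Cytoplasmic ribosomal protein genes gave more calls than any other list. Their transcripts took 10.2%, 21.5% and 16.1% of all UMIs in chinmoST early spermatocytes, against 7.15%, 3.18% and 4.39% in wild-type ones. Of 80 genes, all tested, 50 (62.5%) were higher and none was lower in chinmoST cells, and 79 of 80 stood above wild-type in every library. Of all tested genes 3.25% were called higher and 12.2% stood above wild-type in every library. The median log2 fold change was 1.94, beside 0.06 for all tested genes. Within ages the median log2 ratio was 0.52 at 3-5 d, 2.77 at 6-8 d and 1.84 at 9-11 d, so the 2 older ages carried most of the difference. Leaving out the 3-5 d library of either genotype gave 78 calls (wild-type left out) and 79 calls (chinmoST left out), and leaving out any of the other 4 libraries gave 0, with 79 genes at an unadjusted p under 0.05 in each of those 4 fits. With both 3-5 d libraries left out all 80 were called, and DESeq2 called 78. With the cells of under 2105 UMIs removed 57 of the genes were called, and with every cell thinned to 886 UMIs 53.

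RpL27, a protein of the large ribosomal subunit, stood at 1179, 3385 and 2409 CPM in chinmoST early spermatocytes, against 734.6, 294.5 and 476.8 CPM in wild-type ones. Its lowest chinmoST library, at 3-5 d, was above its highest wild-type library, and the log2 fold change was 2.43 (SE 0.51, adjusted p = 0.04, edgeR quasi-likelihood). RpL18, also of the large subunit, had the highest fold change of the 80, at 2.55 (SE 0.57), from 1055, 2534 and 2075 CPM in chinmoST cells and 678.5, 150.4 and 291.2 CPM in wild-type cells. Among the genes not called, RpS30 of the small subunit stood at 940.1, 2132 and 1760 CPM in chinmoST cells and 924.6, 714.6 and 732.8 CPM in wild-type cells, with a log2 fold change of 1.24 and an adjusted p of 0.08. The lone gene whose libraries overlapped was RpL22, at 33.7, 21.9 and 27.3 CPM in chinmoST cells and 43.4, 1.55 and 6.4 CPM in wild-type cells.

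The ribosomal protein share of single cells followed the same order. Its median was 9.07%, 11.2% and 10.1% of a cell's UMIs in chinmoST testes, against 5.86%, 2.62% and 3.84% in wild-type testes. Among cells with at least 2105 UMIs it was 7.75%, 19.2% and 8.10% in chinmoST testes, against 5.86%, 2.62% and 3.81% in wild-type testes, and the genotypes again did not overlap. The ribosomal protein sum of both later spermatocyte stages was lower than that of early spermatocytes in every library. In intermediate spermatocytes it was 27670, 40940 and 35470 CPM in chinmoST testes, against 24920, 15130 and 14050 CPM in wild-type testes. Late spermatocytes had 21360, 34900 and 32400 CPM in chinmoST testes, against 16610, 11990 and 9084 CPM in wild-type testes. In both later stages, too, every chinmoST library was above every wild-type library.

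Paralogs and further copies of ribosomal protein genes went the same way, but fewer were called. Whether each of these copies is biased to the testis was not tested. Of 11 tested paralogs 5 were higher and none lower in chinmoST early spermatocytes (3.25% and 0.784% of all tested genes), with a median log2 fold change of 1.20. RpL22-like (chromosome 2R, 23246610 to 23247893), the testis-enriched paralog of RpL22, stood at 665.1, 862.1 and 686.3 CPM in chinmoST cells, against 322.1, 125.6 and 243.2 CPM in wild-type cells. The libraries did not overlap, and the log2 fold change was 1.88 (SE 0.35, adjusted p = 0.04, edgeR quasi-likelihood). RpS5b, a paralog used in the germline, stood at 740.8, 1833 and 1307 CPM in chinmoST cells, against 524.7, 249.6 and 252.8 CPM in wild-type cells. By contrast, RpS28-like stood below wild-type, at 64.5, 41.4 and 56.4 CPM in chinmoST cells and 70.6, 120.9 and 83.2 CPM in wild-type cells, with an adjusted p of 0.21. RpS14a and RpL37-2 were called higher as well, but they have near-identical copies among the other ribosomal protein genes, and how their reads were shared between copies is uncertain.

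Translation factors followed. Of 35 tested elongation and initiation factors 10 were higher and none was lower in chinmoST early spermatocytes, 19 stood above wild-type in every library and 2 below, and the median log2 fold change was 1.05. Over all tested genes 3.25% were higher, and 12.2% stood above and 22.4% below without overlap. eEF1alpha1, which brings aminoacyl-tRNA to the ribosome, stood at 1998, 4440 and 3360 CPM in chinmoST cells, against 1301, 762.7 and 1043 CPM in wild-type cells (log2 fold change 1.87, SE 0.44). eEF2, the translocation factor, stood at 398.5, 967.6 and 957.5 CPM in chinmoST cells, against 224.4, 158.1 and 310.4 CPM in wild-type cells (log2 fold change 1.99, SE 0.41). The cap-binding proteins of the testis did not share this direction: eIF4E4 had 482.7, 305.2 and 401.8 CPM in chinmoST cells and 684, 759.6 and 620.8 CPM in wild-type cells (adjusted p = 0.12, edgeR quasi-likelihood), and eIF4E7 had 92.6, 78.7 and 92.3 CPM in chinmoST cells and 170.1, 189.1 and 169.6 CPM in wild-type cells (adjusted p = 0.06). eIF4E3, which works in meiosis, stood at 729.6, 472.4 and 475.9 CPM in chinmoST cells and 816, 640.2 and 678.4 CPM in wild-type cells, with overlapping ranges.

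Genes of the nucleolus, where ribosomes are assembled, gave 6 higher and 0 lower calls of 17 tested, with a median log2 fold change of 1.22. None of these 17 stood below wild-type in every library, and of all tested genes 3.25% were called higher and 22.4% stood below. Nop60B, the pseudouridine synthase of box H/ACA particles, stood at 47.7, 86.1 and 92.3 CPM in chinmoST early spermatocytes, against 23.5, 6.20 and 12.8 CPM in wild-type ones. mod (modulo), a nucleolar protein, stood at 101, 100.7 and 114.8 CPM in chinmoST cells, against 38, 9.30 and 35.2 CPM in wild-type cells. hoip, a box C/D and U4 particle protein, stood at 106.6, 106.3 and 136.3 CPM in chinmoST cells, against 39.8, 7.75 and 22.4 CPM in wild-type cells. In these 3 genes the libraries did not overlap and the lowest value was the wild-type 6-8 d library. Fib, the rRNA methyltransferase fibrillarin, was 134.7, 94.2 and 100 CPM in chinmoST cells and 114, 89.9 and 102.4 CPM in wild-type cells, with overlapping ranges.

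**Figure D4:**
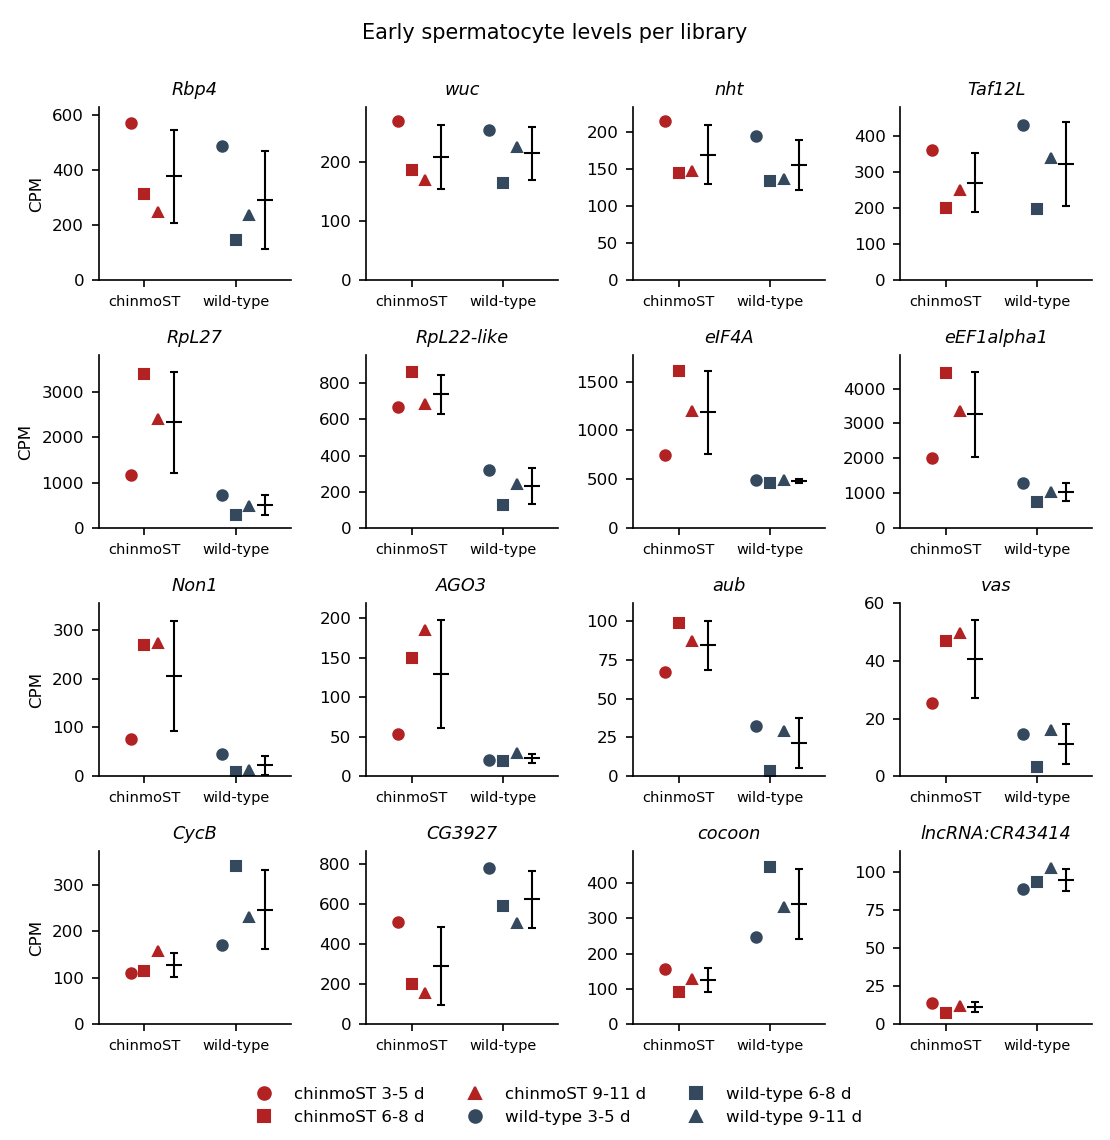
CPM of 16 genes in early spermatocytes, 1 symbol per library with chinmoST left of wild-type; horizontal bars are means and vertical bars 1 SD over 3 libraries. In the top row the genotypes overlap, in the middle rows every chinmoST library lies above every wild-type library, and in the bottom row CycB, cocoon and lncRNA:CR43414 lie below in every chinmoST library while CG3927 overlaps.

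The 10 largest rises were taken among called genes with a mean of at least 50 CPM in the higher genotype. lncRNA:Hsromega, a nuclear RNA that gathers hnRNP proteins into speckles, stood at 81.4, 84.4 and 278.8 CPM in chinmoST early spermatocytes, against 16.3, 9.30 and 3.2 CPM in wild-type ones (log2 fold change 4.05, SE 0.64). Unr, an RNA-binding translation regulator known from dosage compensation, stood at 179.6, 650.2 and 671 CPM in chinmoST cells, against 83.2, 21.7 and 89.6 CPM in wild-type cells (log2 fold change 3.24). Df31, a histone-binding protein of open chromatin, stood at 115.1, 150.2 and 163.1 CPM in chinmoST cells, against 29.0, 10.9 and 22.4 CPM in wild-type cells (log2 fold change 3.02). The largest value was that of the hairpin RNA hpRNA:CR46342, at 36.5, 238.7 and 299.4 CPM in chinmoST cells, against 9.05, 4.65 and 9.6 CPM in wild-type cells (log2 fold change 4.95). Non1, a GTPase of large-subunit assembly, had a log2 fold change of 3.41, and eEF1alpha2, the other elongation factor 1 alpha gene, of 3.73. Ssdp, a cofactor of LIM-domain transcription complexes, had 2.69, and Bacc and CG15599 had 3.42 and 3.301. All were called (adjusted p = 0.04 or lower, edgeR quasi-likelihood), and for each of them the libraries of the genotypes were required by the naming rule not to overlap.

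AGO3, the Argonaute protein of the piRNA ping-pong cycle, belonged to these 10 as well, with 53.3, 150.2 and 185.1 CPM in chinmoST early spermatocytes and 19.9, 18.6 and 28.8 CPM in wild-type ones (log2 fold change 2.84, SE 0.49). Its partner aub had 67.3, 99.0 and 87.0 CPM in chinmoST cells, against 32.6, 3.10 and 28.8 CPM in wild-type cells. vas, the germline helicase vasa, had 25.3, 47.1 and 49.7 CPM in chinmoST cells, against 14.5, 3.10 and 16 CPM in wild-type cells. Both stood above wild-type in every library without being called (edgeR quasi-likelihood adjusted p = 0.0557 for aub and 0.0542 for vas), with log2 fold changes of 2.27 (SE 0.58) and 2.23 (SE 0.56). AGO3 was the one gene called among 14 tested germline RNA-binding proteins and translation repressors, whose median log2 fold change was -0.11 and turned positive under other settings, for instance 0.31 with DESeq2.

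The 10 largest falls held few genes of known role. lncRNA:CR43414 stood at 14.0, 7.31 and 11.96 CPM in chinmoST early spermatocytes, against 88.7, 93.0 and 102.4 CPM in wild-type ones (log2 fold change -2.94, SE 0.35). CR43212 stood at 25.3, 5.68 and 8.13 CPM in chinmoST cells, against 86.8, 96.1 and 105.6 CPM in wild-type cells (log2 fold change -3.02). Galphas, a G-protein alpha subunit, stood at 2.81, 12.2 and 7.17 CPM in chinmoST cells, against 54.3, 97.7 and 25.6 CPM in wild-type cells (log2 fold change -2.65). Rab3, a small GTPase of vesicle release, had a log2 fold change of -1.64, and jtb, CG8508, CG32391 and CG34029 had -1.55, -1.61, -1.62 and -1.47. The remaining transcripts were lncRNA:CR43130 (-1.89) and asRNA:CR44207 (-1.75), the last of which overlaps another gene on the opposite strand. In intermediate spermatocytes the log2 fold changes of the 10 ranged from -4.22 for Galphas to 0.065 for CG32391. They were -2.92 for CR43212, -1.57 for lncRNA:CR43130, -1.43 for lncRNA:CR43414 and -1.34 for CG8508, and lay between -0.60 and -0.40 for CG34029, jtb, asRNA:CR44207 and Rab3.

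The transcription machinery of the spermatocyte programme gave no call. None of the 5 testis TAFs (can, sa, mia, nht and Taf12L) and none of the 9 tMAC subunits was called by edgeR or DESeq2, 0 and 2 of them had an unadjusted p under 0.05, and the median log2 fold changes were 0.01 and 0.08. aly, the tMAC subunit whose loss arrests spermatocytes, had 87.0, 59.3 and 66.5 CPM in chinmoST early spermatocytes and 117.6, 46.5 and 76.8 CPM in wild-type ones. can, a TAF5 paralog, had 30.9, 36.5 and 34.4 CPM in chinmoST cells and 32.6, 29.4 and 60.8 CPM in wild-type cells. topi and comr, 2 further tMAC subunits, stood below wild-type in every chinmoST library, whereas achi, a homeodomain subunit, and Caf1-55, a histone-binding subunit shared with other complexes, stood above it. These were 2 of 9 on each side, while over all tested genes 22.4% stood below and 12.2% above without overlap, so no split within tMAC is read from them. The median of the TAFs changed sign under 9 alternative settings and that of tMAC under 3, so no direction is given for either group.

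Genes of the next steps were lower in level but not past the test. The 6 markers of intermediate and late spermatocytes summed to 1111, 750.9 and 843.2 CPM in chinmoST early spermatocytes, against 1489, 1761 and 1594 CPM in wild-type ones, and the 9 spermatid markers to 1768, 918.9 and 1277 CPM, against 2249, 2159 and 2195 CPM in wild-type cells. Neither sum overlapped between genotypes. None of the 6 and none of the 9 was called by edgeR or DESeq2, with 2 and 5 at an unadjusted p under 0.05 in edgeR and with median log2 fold changes of -0.52 and -0.66. CycB, the B-type cyclin of meiotic entry, stood at 109.4, 114.5 and 156.4 CPM in chinmoST cells and 170.1, 339.5 and 230.4 CPM in wild-type cells (log2 fold change -0.75, SE 0.28, adjusted p = 0.12). twe (twine), the Cdc25 phosphatase of meiosis, stood at 89.8, 108.8 and 105.7 CPM in chinmoST cells and 119.4, 170.5 and 188.8 CPM in wild-type cells. These 2 stood below wild-type in every library. bol (boule), which promotes translation of twe, overlapped, at 92.6, 146.9 and 201.8 CPM in chinmoST cells and 83.2, 317.8 and 326.4 CPM in wild-type cells, as did fzo, the mitofusin of spermatid mitochondria, at 25.3, 73.1 and 113.8 CPM in chinmoST cells and 74.2, 184.5 and 134.4 CPM in wild-type cells.

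Of the spermatid markers 7 of 9 stood below wild-type in every chinmoST library, against 22.4% of all tested genes. schuy had 92.6, 77.1 and 126.7 CPM in chinmoST early spermatocytes and 152, 193.8 and 214.4 CPM in wild-type ones, and boly had 300.3, 157.5 and 201.4 CPM in chinmoST cells and 381.8, 339.5 and 422.4 CPM in wild-type cells. These genes are known from post-meiotic transcription, and their transcripts were already counted in early spermatocytes of both genotypes. Mst77F, which encodes a sperm chromatin protein, stood at 2416, 1099 and 1582 CPM in chinmoST early spermatocytes and 4064, 3984 and 5258 CPM in wild-type ones. It was chosen after its values were seen, as a transcript among the 10 most abundant of every wild-type library, and its adjusted p was 0.08 (edgeR quasi-likelihood). Late spermatids, which carry these transcripts in bulk, had 14670, 10210 and 10940 CPM of the 9 spermatid markers in chinmoST testes and 11170, 10160 and 13560 CPM in wild-type testes, and the part of RNA from other cells in the early spermatocyte values was not tested.

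The meiotic cell cycle regulators as a whole were divided. Of 17 tested, only mts, the catalytic subunit of protein phosphatase 2A, was called, at 325.5, 290.6 and 381.7 CPM in chinmoST early spermatocytes and 220.7, 99.2 and 96 CPM in wild-type ones (log2 fold change 1.43, SE 0.33, adjusted p = 0.04, edgeR quasi-likelihood). Its regulatory partner Pp2A-29B had 112.2, 120.1 and 139.7 CPM in chinmoST cells and 124.8, 125.6 and 137.6 CPM in wild-type cells. fest, which acts with Rbp4 on cyclin B, had 847.5, 1071 and 1215 CPM in chinmoST cells and 781.7, 1085 and 1184 CPM in wild-type cells, with overlapping ranges. mei-S332 (shugoshin), which protects centromere cohesion, had 95.4, 68.2 and 83.7 CPM in chinmoST cells and 150.2, 133.3 and 137.6 CPM in wild-type cells, without overlap but with an adjusted p of 0.12. The median of the 17 was -0.15 and became 0.06 without the filter on low counts.

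Transcripts of the preceding stage were more abundant in the sums of chinmoST early spermatocytes. The 6 GSC and spermatogonia markers (aub, zpg, vas, nanos, stg and bam) summed to 120.7, 189.1 and 215.7 CPM in chinmoST early spermatocytes, against 65.1, 20.2 and 67.2 CPM in wild-type ones. All 6 were detected in chinmoST cells and stg had no UMI in wild-type cells, but only aub and vas passed the filter on low values, so 4 of the 6 were not tested. Neither tested gene was called by edgeR, both had an unadjusted p under 0.05, and DESeq2 called 2 of the 6. nanos, a translation repressor of the stem cells, had 2.81, 24.35 and 26.31 CPM in chinmoST cells (86 UMIs) and 5.43, 6.20 and 3.2 CPM in wild-type cells (8 UMIs). bam, the switch to differentiation, had 14.03, 9.74 and 31.09 CPM in chinmoST cells (82 UMIs) and 10.86, 7.75 and 19.2 CPM in wild-type cells (17 UMIs). For nanos and bam the genotypes overlapped. GSCs/spermatogonia themselves had 770.7, 824.7 and 816.5 CPM of these markers in chinmoST testes and 707.9 CPM in wild-type testes at 3-5 d. The marker sum moved with the ribosomal protein share between the genotypes, and the part of one in the other was not tested.

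S-phase and mitotic genes were mostly too low to test, with 8 of 20 passing the filter and none called (edgeR; 4 at an unadjusted p under 0.05 and none by DESeq2). PCNA, the replication clamp, had 213.3, 155.9 and 118.1 CPM in chinmoST early spermatocytes and 124.8, 55.8 and 83.2 CPM in wild-type ones, with overlapping ranges. dup, the replication licensing factor, had 22.4, 20.3 and 24.9 CPM in chinmoST cells and 5.43, 12.4 and 9.6 CPM in wild-type cells, without overlap (adjusted p = 0.08, edgeR quasi-likelihood). The regulators of the exit from spermatogonial divisions gave no call of 5 tested (edgeR; 1 at an unadjusted p under 0.05 and none by DESeq2). mei-P26, a translation regulator of that exit, had 19.6, 92.5 and 129.6 CPM in chinmoST cells and 18.1, 46.5 and 67.2 CPM in wild-type cells.

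chinmo itself (chromosome 2L, 1651258 to 1704682), the gene named in the mutant strain, was measured at 143.1, 246 and 237.7 CPM in chinmoST early spermatocytes, against 132.1, 173.6 and 169.6 CPM in wild-type ones. At each age the chinmoST value was the higher of the pair, but the ranges overlapped over ages and the log2 fold change of 0.63 (SE 0.28) had an adjusted p of 0.16 (edgeR quasi-likelihood). The chinmoST allele is known for its effect in the somatic lineage, so this transcript in germ cells does not check the labels.

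Genes of oocyte differentiation were of interest to the study for this cell type. Of 18 listed genes 7 passed the filter on low values and 2 were called, both higher in chinmoST cells (3.25% of all tested genes were), and both encode parts of the translation machinery. eIF4A (chromosome 2L, 5981764 to 5985909), the RNA helicase of cap-dependent initiation, stood at 752, 1605 and 1200 CPM in chinmoST early spermatocytes, against 492.2, 462 and 489.6 CPM in wild-type ones. The libraries did not overlap, and the log2 fold change was 1.52 (SE 0.35, adjusted p = 0.04, edgeR quasi-likelihood). sta (stubarista), a small-subunit ribosomal protein, stood at 912, 2487 and 1986 CPM in chinmoST cells, against 752.7, 322.4 and 457.6 CPM in wild-type cells, with a log2 fold change of 2.03 (SE 0.48, adjusted p = 0.0451). Hrb27C, an hnRNP protein that regulates RNA localisation in oocytes, had 269.4, 571.5 and 662.9 CPM in chinmoST cells and 202.7, 251.1 and 291.2 CPM in wild-type cells and was not called (adjusted p = 0.06). The study singled out eIF4A and sta in early spermatocytes and Hrb27C in GSCs/spermatogonia of these samples, so the direction of these 3 genes is not independent evidence.

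Genes used more strictly by the egg chamber were near the floor. ovo had 7 UMIs in chinmoST early spermatocytes and 0 in wild-type ones, otu had 5 and 2, and grk had 3 and 1, and none of them could be tested. orb, a translation regulator of oocytes and spermatocytes, had 56.1, 94.98 and 133 CPM in chinmoST cells and 108.6, 198.4 and 220.8 CPM in wild-type cells, with overlapping ranges. exu, used in oocytes and spermatocytes, had 628.6, 556.9 and 783.9 CPM in chinmoST cells and 640.5, 1180 and 1395 CPM in wild-type cells, with overlapping ranges too. Sxl, the female sex switch, had 132 UMIs in chinmoST cells and 6 in wild-type cells, or 11.2, 20.3 and 49.3 CPM in chinmoST cells and 1.81, 1.55 and 12.8 CPM in wild-type cells. It failed the filter and was not tested.

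Among the 7 tested germline sex identity genes 1 was called, beside 4.03% of all tested genes. It was egg (eggless), the H3K9 methyltransferase, with 19.6, 45.5 and 31.6 CPM in chinmoST early spermatocytes and 7.24, 9.30 and 12.8 CPM in wild-type ones (log2 fold change 2.04, SE 0.49, adjusted p = 0.0484, edgeR quasi-likelihood). Phf7, a chromatin reader of male germ cells, had 81.4, 81.2 and 93.3 CPM in chinmoST cells and 74.2, 29.4 and 44.8 CPM in wild-type cells. Its libraries did not overlap and its log2 fold change was 0.98 (SE 0.36), but the adjusted p was 0.12. snf, a splicing factor of Sxl, had 325.5, 241.1 and 187.5 CPM in chinmoST cells and 242.5, 130.2 and 172.8 CPM in wild-type cells, and tra2 had 182.4, 182.6 and 160.2 CPM in chinmoST cells and 153.8, 193.8 and 227.2 CPM in wild-type cells. Both overlapped.

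RNA processing genes gave 3 higher and 0 lower calls of 19 tested, beside 3.25% and 0.784% of all tested genes, with a median log2 fold change of 0.68. One was lncRNA:Hsromega, given above. B52, an SR splicing protein, had 297.5, 352.3 and 294.1 CPM in chinmoST early spermatocytes and 152, 76.0 and 105.6 CPM in wild-type ones (log2 fold change 1.69, SE 0.29). Rm62, an RNA helicase, had 134.7, 271.1 and 317.6 CPM in chinmoST cells and 74.2, 108.5 and 105.6 CPM in wild-type cells (log2 fold change 1.57, SE 0.34). In both genes every chinmoST library was above every wild-type library.

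Markers of the other cells of the testis were counted in both genotypes. The 15 hub and cyst cell markers summed to 280.6, 455.4 and 453.9 CPM in chinmoST early spermatocytes and 217.1, 195.3 and 198.4 CPM in wild-type ones, and tj, the transcription factor that defines early cyst cells, had 2 UMIs in chinmoST cells and 0 in wild-type cells. Most of that sum was Pdcd4, a translation inhibitor, at 190.8, 396.1 and 372.6 CPM in chinmoST cells and 106.8, 49.6 and 92.8 CPM in wild-type cells, which was the lone call of the 4 tested genes. The 12 markers of other somatic cells summed to 1785, 848.3 and 1407 CPM in chinmoST cells and 1310, 793.7 and 640 CPM in wild-type cells. There, too, 1 gene of 3 tested was called, MtnA, a metallothionein, at 308.7, 210.2 and 276.4 CPM in chinmoST cells and 155.6, 120.9 and 96 CPM in wild-type cells. Of all tested genes 3.25% were called higher. With only 4 of 15 and 3 of 12 markers tested, these single calls do not describe the lists. Hml, the haemocyte marker, and Mp20 and Zasp66 of muscle had at most 11 UMIs per genotype.

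Insulin and TOR pathway genes (9 tested), JAK-STAT and BMP response genes (5 tested), histone variants (8 tested), heat shock and stress genes (13 tested) and Y-linked fertility genes (4 tested) gave no call by edgeR in either direction. In that order the number at an unadjusted p under 0.05 was 1, 1, 3, 3 and 0, the number called by DESeq2 was 0, 0, 1, 1 and 0, and the medians were 0.65, 0.43, 0.25, 0.22 and -0.27. InR, the insulin receptor, had 2.81, 30.9 and 69.8 CPM in chinmoST early spermatocytes and 5.43, 12.4 and 9.6 CPM in wild-type ones and did not pass the filter. Stat92E had 8.42, 59.3 and 38.3 CPM in chinmoST cells and 12.7, 18.6 and 16 CPM in wild-type cells. Hsp26, a small heat shock protein of the germline, had 3039, 1896 and 1459 CPM in chinmoST cells and 2857, 1707 and 2173 CPM in wild-type cells.

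Of 88 tested nuclear genes of oxidative phosphorylation 2 were higher and 1 was lower in chinmoST early spermatocytes, near the 3.25% and 0.784% of all tested genes, with a median of 0.31. ATPsynbeta, the catalytic subunit of ATP synthase, had 277.8, 401.8 and 351.1 CPM in chinmoST cells, against 155.6, 37.2 and 32 CPM in wild-type cells (log2 fold change 2.35, SE 0.51). COX8, a cytochrome oxidase subunit, had 381.6, 483.8 and 401.3 CPM in chinmoST cells, against 249.7, 218.6 and 252.8 CPM in wild-type cells. ND-49L, a paralog of a complex I subunit, had 87.0, 60.1 and 73.7 CPM in chinmoST cells, against 159.2, 159.7 and 153.6 CPM in wild-type cells, and was the call in the other direction. The transcripts of the mitochondrial genome took 1.18%, 2.70% and 3.12% of UMIs in chinmoST cells and 0.921%, 1.54% and 1.38% in wild-type cells, which overlapped, and none of the 13 tested was called by edgeR although their median was 1.40 (5 at an unadjusted p under 0.05 and 1 called by DESeq2).

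Levels of mitochondrial transcripts differed between the youngest libraries and the others in both genotypes. The small ribosomal RNA mt:srRNA had 1, 392 and 1345 UMIs in chinmoST early spermatocytes and 0, 82 and 37 UMIs in wild-type ones, so both 3-5 d libraries were near 0. mt:ND2 had 11.2, 514.7 and 616.5 CPM in chinmoST cells and 1.81, 209.3 and 281.6 CPM in wild-type cells, with the same split by age. Within the 2 older ages every chinmoST value of mt:ND2 and of mt:srRNA was above every wild-type value. With both 3-5 d libraries left out, 3518 of 7569 tested genes were called over all, 1907 higher and 1611 lower in chinmoST cells.

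By chromosome, the small chromosome 4 took 0.573%, 0.612% and 0.613% of UMIs in chinmoST early spermatocytes, against 0.445%, 0.308% and 0.362% in wild-type ones. The X took 11.5%, 13.6% and 13.6% in chinmoST cells, against 10.8%, 11.1% and 11.8% in wild-type cells. Chromosome 4 did not overlap between genotypes and the X did. These shares count every gene of a chromosome, ribosomal protein genes included, and what they would be without those genes was not tested. In GSCs/spermatogonia chromosome 4 took 0.982%, 0.977% and 0.974% in chinmoST testes and 0.927% in wild-type testes at 3-5 d. In intermediate spermatocytes it took 0.299%, 0.317% and 0.332% in chinmoST testes and 0.263%, 0.237% and 0.226% in wild-type testes. Early spermatocytes of both genotypes thus lay between those stages in the 3-5 d libraries.

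**Figure D5:**
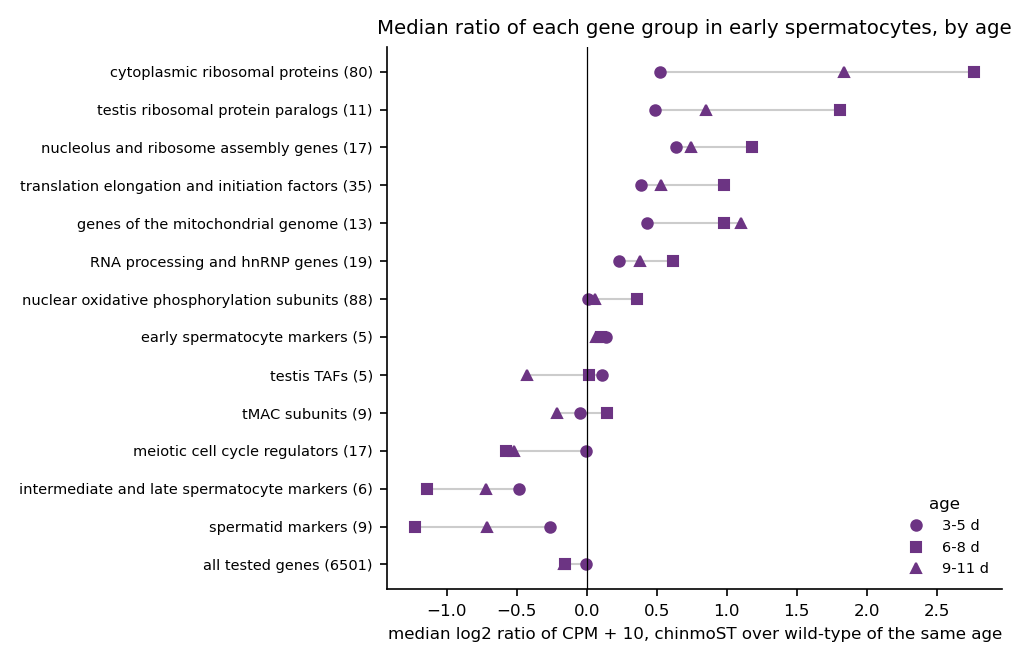
Median log2 ratio of CPM + 10, chinmoST over wild-type of the same age, for 13 gene groups and for all 6501 tested genes in early spermatocytes; each symbol is 1 age and the grey line spans the 3 ages. The ribosomal protein median lay at 0.52, 2.77 and 1.84 from the youngest to the oldest age, and the intermediate and late spermatocyte and spermatid markers lay below 0 at each age. The median of all tested genes lay at -0.008, -0.157 and -0.166. CPM was scaled by the total, so these medians need not match the log2 fold changes.

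Is the genotype difference particular to early spermatocytes? It was set against that of intermediate spermatocytes, the next stage in the same libraries, in 1 model with the library as a block. The difference between the stages passed the test at 332 of 7496 genes, or 4.43%, of which 182 were more positive and 150 more negative in early spermatocytes (edgeR quasi-likelihood, 227 and 101 with another scaling, the relative log expression of DESeq2). Without the library block no gene passed and 478 had an unadjusted p under 0.05. Leaving out single libraries gave 40 to 557 calls, the lowest without the wild-type 6-8 d library, 110 without the chinmoST 6-8 d library and 557 without the chinmoST 3-5 d library. The ribosomal protein genes were more positive in early than in intermediate spermatocytes at 66 of 80, with medians of 1.94 and 0.95 in the stages on their own. All 13 tested genes of the mitochondrial genome were more positive as well, with a median of 0.06 in intermediate spermatocytes.

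The genes with the smallest p in this comparison were cocoon on the negative side and mt:srRNA on the positive one. cocoon had 157.1, 90.1 and 128.7 CPM in chinmoST early spermatocytes, against 246.1, 444.9 and 332.8 CPM in wild-type ones, and its difference between the stages was -2.20 on the log2 scale (adjusted p = 1.6e-06). CG3927, used as a marker of later spermatocytes, had 510.7, 198.9 and 153.1 CPM in chinmoST early spermatocytes and 779.9, 587.5 and 502.4 CPM in wild-type ones, and its difference between the stages was -1.62 (adjusted p = 6.8e-05). The testis TAF sa, at 283.4, 108.8 and 112.4 CPM in chinmoST cells and 262.4, 161.2 and 211.2 CPM in wild-type cells, differed between the stages by -0.95 (adjusted p = 0.02). On the positive side, mt:srRNA, mt:ND5 and mt:ND6 had 2.12, 1.61 and 1.505, eIF5B, the factor that joins the ribosomal subunits, had 1.53, and rudhira had 2.89. Further genes on the negative side were Pk34A at -1.91, CG31600 at -1.46 and lncRNA:CR43356 at -1.37. The genotype effect on eIF4A differed between the stages by 1.30 (edgeR quasi-likelihood, adjusted p = 0.00065). For aub and vas the differences of -0.18 and 0.16 did not pass the same edgeR test (adjusted p = 0.91 and 0.96).

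Inside cluster 4, the cluster that was mostly early spermatocytes, the ribosomal protein sum was 105400, 281000 and 218200 CPM in chinmoST cells, against 74850, 33240 and 45060 CPM in wild-type cells, and 79 of 80 genes were called. Over all 6105 genes tested in this cluster 712 were called higher and 741 lower in chinmoST cells. The markers of intermediate and late spermatocytes summed there to 1074, 400.1 and 622.8 CPM in chinmoST cells, against 1465, 1818 and 1608 CPM in wild-type cells, with 2 of 6 called lower by edgeR and a median of -1.04. Spermatid markers summed to 1575, 504.1 and 755.9 CPM in chinmoST cells, against 2243, 2125 and 2216 CPM in wild-type cells, with 3 of 9 called lower. CycB in this cluster was 91.2, 46.5 and 105.8 CPM in chinmoST cells, against 181.7, 347.6 and 232.5 CPM in wild-type cells. eIF4A was 761.3, 2063 and 1491 CPM in chinmoST cells, against 533.4, 466.6 and 484.3 CPM in wild-type cells.

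Inside cluster 9 the ribosomal protein sum was 47910, 80780 and 98730 CPM in chinmoST early spermatocytes, against 35110, 23910 and 23560 CPM in wild-type ones, and 48 of 79 tested genes were called. Over all 2409 genes tested in this cluster 58 were called higher and 1 lower in chinmoST cells. Markers of intermediate and late spermatocytes summed to 1465, 1474 and 1121 CPM in chinmoST cells and 1777, 1510 and 1620 CPM in wild-type cells, so every chinmoST sum was below every wild-type sum, while the median log2 fold change of the single genes was 0.10 and the 5 spermatid markers tested there had a median of 0.001. CycB was 199.8, 254.4 and 227 CPM in chinmoST cells and 163.4, 320.1 and 214.4 CPM in wild-type cells. The wild-type sums in this cluster came from 12, 31 and 10 cells. The ribosomal protein difference was thus called in both clusters. Some later-stage markers were called lower in cluster 4 and none in cluster 9. With 1 lower call over all genes in cluster 9, this sets up no contrast between the clusters, and none was tested.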

How the data were processed

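Testes of chinmoST and wild-type (Oregon R) adult males were profiled by the authors with the 10x Genomics 3′ assay (v3 chemistry), 1 library for each genotype and age. According to the submitters' processing notes, reads were aligned to dm6 with Cell Ranger 4.0.0 and cells were processed with Seurat 3.2.2. The authors deposited UMI counts per gene and barcode, and a table with each kept cell's type, cluster and percent of mitochondrial UMIs. They kept cells with 200 to 6000 genes and under 10% mitochondrial UMIs. No doublet caller was run here, and the matrices name 17612 genes, of which 17537 had a symbol.

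UMI counts of the early spermatocytes were summed per library, giving 312493 to 2090798 UMIs, and divided by their total to give CPM. Genotypes were compared with edgeR 4.0.16 (quasi-likelihood test, TMM scaling, filterByExpr, Benjamini-Hochberg over all tested genes, called at adjusted p under 0.05) in R 4.3.3, after the procedure had been tested on simulated data. The study's own test took cells as replicates. Here the library was the unit, and the 3 ages were the replicates of a genotype, so p-values measure the spread between these libraries. Levels of different genes were not compared. The genotype effect in early and in intermediate spermatocytes was compared by their interaction, with the library as a block. Cell numbers were compared by exact two-sided permutation in scipy 1.17.1. Intervals for shares are exact binomial (Clopper-Pearson, 95%) and cover counting error only, and a fold against a count of 0 would use 3 counts as its floor. Coordinates are those of the Ensembl annotation of dm6.

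Genes named in the text were the members of the gene lists, the 10 called genes with the largest rise and the 10 with the largest fall among those without overlap between genotypes and with a mean of at least 50 CPM in the higher genotype, the 5 genes with the smallest p in each direction of the interaction, chinmo, and genes the study names for this cell type or for GSCs/spermatogonia. The cells, lists and tests were chosen with earlier results of these data known. Gene lists are described by counts and medians, without a test. Alternatives were DESeq2 1.42.0 and its scaling, no filter on low counts, the age as a block, a term for the 3-5 d libraries, a minimum of 2105 UMIs per cell, thinning to 886 UMIs per cell, leaving out libraries, and, chosen after seeing the data, each of the main clusters alone. No sequences are shown, since no sequence tables were used here.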

Additional observations from a re-analysis of the deposited data

Results flagged for a closer look

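The genotype effect differed between early and intermediate spermatocytes, by a test of the difference itself (edgeR quasi-likelihood, adjusted p under 0.05), at 332 genes. The following values are log2 differences, early minus intermediate, of the chinmoST over wild-type fold change. They were positive for lncRNA:Hsromega (3.865), eEF1alpha2 (3.732), rudhira (2.891), AGO3 (1.767), eIF5B (1.534), Df31 (1.459), eIF4A (1.303), eEF2 (1.277), RpS5b (1.19), RpL22-like (1.011) and eEF1alpha1 (0.707). For the mitochondrial transcripts mt:srRNA, mt:ND5, mt:ND6 and mt:ND2 they were 2.119, 1.607, 1.505 and 1.216. They were negative for cocoon (-2.197), Pk34A (-1.907), CG32391 (-1.723), lncRNA:CR43414 (-1.699), CG3927 (-1.622), CG31600 (-1.46), lncRNA:CR43356 (-1.371), Rab3 (-1.299), sa (-0.954) and CG34029 (-0.892). Of the 80 cytoplasmic ribosomal protein genes 66 had a higher effect in early spermatocytes, and of the 13 tested genes of the mitochondrial genome 13 did.

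A signal also appeared in barcodes that no comparison used, those above the limit of 6000 genes, which carry no cell type. Ribosomal protein transcripts took 3.617%, 8.935% and 18.36% of their UMIs in chinmoST testes from the youngest to the oldest age, against 2.153%, 1.432% and 1.545% in wild-type testes. The GSC and spermatogonia markers of these barcodes summed to 39.6, 111.1 and 247 CPM in chinmoST testes, against 17.5, 8.39 and 16.04 CPM in wild-type testes. How far a different mix of cell types makes up the ribosomal protein share was not tested. There were 122, 222 and 200 such barcodes in chinmoST testes and 231, 138 and 128 in wild-type testes, with medians of 245885 to 273660 UMIs in chinmoST testes and 256120 to 335025 in wild-type testes.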

How the results depend on the processing

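The number of genes called between chinmoST and wild-type early spermatocytes, 262, became 294 with the scaling of DESeq2, 435 with DESeq2 itself, 1211 without the filter on low counts, 2360 with a term for the 3-5 d libraries, 3518 without both 3-5 d libraries, 522 with at least 2105 UMIs per cell and 86 with cells thinned to equal UMIs. Chosen after seeing the data, cluster 4 alone gave 1453 calls and cluster 9 alone 59. Leaving out 1 library gave 0 to 1427. Fewer genes were tested after thinning (2592) and in cluster 9 (2409); the cause of the other shifts was not tested. All 262 genes kept their direction in every setting in which they were tested. The share of calls that were higher, 80.5%, was 61.1% with the UMI minimum, which also moved the median of all genes to 0.19, 93.0% after thinning, 98.3% in cluster 9 and 49.0% in cluster 4.

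Ribosomal protein genes called, 50 of 80, became 78 with DESeq2, 79 without the filter, with the batch term or in cluster 4, 80 without both 3-5 d libraries, and 0 to 79 with 1 library left out. For the difference between the stages, 332 calls became 1253 with the UMI minimum, of which 305 were higher, 121 with DESeq2, and 40 to 557 with 1 library left out. The difference of the log2 ratio of early to intermediate spermatocytes, 2.62, lay between 1.62 and 3.18 with 1 library left out, at 2.30 against all later germline types and at 1.15 with the UMI minimum.

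The ages carry the same numbers in both genotypes, but the libraries of an age did not deviate together at each age (correlations 0.525, 0.022 and 0.449). For the low value of the middle age, the main fit did not treat the ages as pairs. Across ages, the youngest library of a genotype correlated at -0.605 to -0.246 with the older libraries of the other genotype. The middle and oldest ages correlated at 0.376 and 0.333 across genotypes. The youngest libraries thus shared a deviation, which the main fit left in the spread between libraries. With age as a replicate block 1918 genes and 79 ribosomal protein genes were called. In that fit aub, vas, Phf7, Hrb27C and CycB passed the test as well, and chinmo and twe did not. Without the library block the difference between the stages gave 0 calls.

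Near 0, signs turned. The log2 fold change of wuc was -0.065 to 0.284 with 1 library left out, and the log2 fold change of Taf12L -0.381 to 0.197 with 1 library left out, 0.008 with the UMI minimum, 0.007 without both 3-5 d libraries and 0.150 in cluster 4. In cluster 9 the log2 fold change of CycB was 0.151 and the log2 fold change of twe 0.455. Of the other values of named genes, 119 lost and 53 gained a call and 447 did neither; between the stages 98 kept theirs and 11 lost it. Of the list medians, 89 moved by more than the spread between ages and 319 did not.

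Depth limits what can be read: the wild-type sums rest on 79 to 106 cells per library and the chinmoST cells hold fewer UMIs each, so low genes such as ovo or Sxl were not tested. The age and the library cannot be told apart within a genotype, nor the strain and the allele between genotypes.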

Other observations

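The barcodes above the gene limit also carried early spermatocyte transcripts. The 5 stage markers summed to 433.9, 388.8 and 531.8 CPM in those of chinmoST testes from the youngest to the oldest age, against 477.9, 234.8 and 106.8 CPM in those of wild-type testes. Rbp4 stood at 122.9, 97.9 and 167.5 CPM in chinmoST barcodes, against 127.6, 21.8 and 11.9 CPM in wild-type ones. The GSC and spermatogonia markers summed to 39.6, 111.1 and 247 CPM in chinmoST barcodes, against 17.5, 8.39 and 16.04 CPM in wild-type ones, and the spermatid markers to 3584, 2483 and 1627 CPM, against 4186, 3612 and 3369 CPM in wild-type ones. These barcodes held far more UMIs each than the annotated early spermatocytes, and whether they are single cells was not tested.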
